A study of Sus scrofa with 31 samples.

Results

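The SLC25 family is the set of mitochondrial carriers, here every gene whose symbol in the deposited tables begins with SLC25A. The arm 1 table named 41 of them among 21313 genes and that of arm 2 named 32 among 25149, and 44 symbols stood in either table. Of these, 29 had the same gene ID and symbol in both tables, 12 were named in arm 1 only and 3 in arm 2 only (SLC25A2, SLC25A29 and SLC25A31). The uncoupling proteins UCP1 to UCP3 belong to the same family under other symbols and were not counted as members. Arm 1 comprised myocardial biopsies from 6 pig hearts, 3 preserved by HOPE (pigs 2, 4 and 6) and 3 by SCS (pigs 1, 3 and 5), each sampled at 0, 12, 24 and 48 h of storage. Arm 2 comprised 7 biopsies taken after storage and 2 h of normothermic machine perfusion (NMP), with 1 library after 24 h of SCS and 2 libraries each after 3, 24 and 48 h of HOPE. HOPE and SCS stand in the labels as abbreviations only, which in heart preservation usually mean hypothermic oxygenated perfusion and static cold storage, in which the heart is cooled without perfusion. Strain, age and sex are not given in the sources used here, and a heart sampled without storage is not among the arm 2 groups. The labels call the cells cardiomyocytes, but whole myocardium was sequenced, so fewer cells of a type and less RNA per cell cannot be told apart.

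Carriers of this family sit mostly in the inner mitochondrial membrane and exchange one metabolite for another across it. In heart muscle the ADP/ATP carriers export ATP made by oxidative phosphorylation, the phosphate carrier imports the phosphate for that synthesis, and the carnitine-acylcarnitine carrier brings in fatty acids as fuel. Other members serve the malate-aspartate shuttle, the citric acid cycle, amino acid use, and the supply of nucleotides, cofactors, iron and glutathione to the matrix.

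Arm 1 libraries held 19722065 to 35099406 recovered reads, of which 36443 to 273177 fell on SLC25 genes. In arm 1 the values are counts divided by a size factor per library (normalised counts), and in arm 2 they are TPM, transcript levels scaled to gene length and to a fixed library total, whose depth is unknown. Cardiomyocyte markers were abundant in every arm 1 library; MYH7, the slow myosin heavy chain, was at 141201 normalised counts or more. The 13 mitochondrially encoded genes took 31.8%, 28.996% and 31.5% of the normalised counts in HOPE pigs 2, 4 and 6 at 48 h, against 48.0%, 60.0% and 82.4% in SCS pigs 1, 3 and 5. The 48 h library of SCS pig 5 thus stood apart, so calls and named values of carriers that turn on it are also given without it. In arm 2 the SCS library stood apart: its 7 measured cardiomyocyte markers summed to 2389 TPM, against 37044 to 59907 TPM in the 6 HOPE libraries. The kits and units of the arms differ, so levels were not compared between them.

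The ADP/ATP carrier SLC25A4 and the phosphate carrier SLC25A3 dominated the family. By mean TPM in arm 2, which allows genes to be compared because it divides by length, SLC25A4 (ADP/ATP carrier 1, the heart and muscle form; chromosome 15, 46193498 to 46197989 of Sscrofa11.1) averaged 3036 TPM and ranked 32nd of 25149 genes. SLC25A3 (chromosome 5, 85284405 to 85292336) averaged 1052 TPM and ranked 72nd. The next members were SLC25A5 (ADP/ATP carrier 2, the form of proliferating cells) at 48.5 TPM, the glutathione carrier SLC25A39 at 40.4 TPM, the ATP-Mg/phosphate carrier SLC25A25 at 35.6 TPM, and the aspartate/glutamate carrier SLC25A12 at 33.8 TPM. The basic amino acid carrier SLC25A29 averaged 28.6 TPM and the carnitine-acylcarnitine carrier SLC25A20 (chromosome 13, 31523820 to 31553289) 23.9 TPM. These means include the SCS library, in which SLC25A25 was high; over the 6 HOPE libraries the median of SLC25A25 was 19.4 TPM, below the 39.8 TPM of SLC25A12, the 30.1 TPM of SLC25A29 and the 26.4 TPM of SLC25A20. These 8 were the members with a mean of at least 10 TPM, and 24 were lower. SLC25A31, the ADP/ATP carrier known from testis, was listed at 0 in all 7 arm 2 libraries. It was 1 of 7 members with a mean under 1 TPM that were not tested, with SLC25A2, SLC25A14, SLC25A23, SLC25A35, SLC25A45 and SLC25A53. SLC25A23 averaged 0.146 TPM here, but in arm 1 it ranked 12th of the members, at a mean of 741 normalised counts. The cause of this disparity was not tested, so its arm 2 level is uncertain. Among the 12 members that the arm 2 table does not name are SLC25A6, SLC25A10, SLC25A30 and SLC25A34.

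Within arm 1, whose values are not divided by gene length, SLC25A4 took 42.8% to 58.5% of all SLC25 counts in every library and the whole family 0.114% to 0.792% of all counts. Ranked by normalised count, SLC25A4 was 27th and SLC25A3 54th of 21313 genes. SLC25A6 (ADP/ATP carrier 3, broadly expressed) ranged over 8953 to 19190.5 normalised counts and SLC25A5 over 274 to 398. The 3 ADP/ATP carriers are close in sequence, so reads may have been split between them or with copies of them in counting, and their separate values are uncertain to that extent. Of the 41 members, 37 had a mean of at least 10 and were tested. The other 4, SLC25A41, SLC25A45, SLC25A48 and SLC25A53, did not exceed 21.3 normalised counts in any library. The gene ID that arm 2 calls SLC25A29 carried no symbol in arm 1, where it was at 170.8 to 836 normalised counts and passed in no comparison. That of SLC25A42 in arm 1 carried another symbol in arm 2, where it was at 0.573 to 1.36 TPM, so the identity of this member is uncertain.

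No member passed the threshold for a change with storage time in either preservation group. Within HOPE hearts, SLC25A4 was at 67185, 89932 and 77891 normalised counts at 0 h in pigs 2, 4 and 6. It was at 58579, 88622 and 83453 at 12 h and at 66822, 76726 and 111031 at 24 h. After 48 h it was at 64734, 80405 and 94605. Pig 2 was lowest of the 3 at every time, and the levels at the 4 times overlapped. Within SCS hearts, pigs 1, 3 and 5 had 69139.5, 60666 and 84214 normalised counts of SLC25A4 at 0 h. At 12 h they had 74393, 83112 and 89334, at 24 h 102078, 51638 and 71632, and at 48 h 122310.0, 52452 and 60435. The SCS hearts parted: pig 1 was highest at 48 h, while pigs 3 and 5 were below their own 0 h values.

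SLC25A3 showed the same parting more widely. This protein imports phosphate into the matrix, and copper as well. HOPE pigs 2, 4 and 6 had 38569.5, 44774 and 25451 normalised counts at 0 h, then 37548, 48209.7 and 31224 at 12 h. After 24 h they had 36296, 47595 and 38648, and after 48 h 35397, 48675 and 35373. HOPE pig 4 was highest of the 3 at every time. SCS pigs 1, 3 and 5 had 29303, 24992 and 28144 normalised counts at 0 h, then 33096, 28323 and 24061 at 12 h. After 24 h they had 45555, 15797 and 20903, and after 48 h 56049, 15498 and 16223. At 48 h SCS pig 1 lay above all 3 HOPE hearts, and SCS pigs 3 and 5 lay below all 3. For SLC25A20, which moves acylcarnitines inward for beta-oxidation, HOPE hearts had 1783, 1902 and 1984 normalised counts at 48 h, against 1671, 1897 and 1179.6 at 0 h, and SCS hearts had 2024, 1202 and 833 at 48 h, against 1452, 1159 and 1242 at 0 h. HOPE hearts spread over a narrower range at 48 h than at 0 h, and SCS hearts over a wider one. At 12 h it was at 1774, 1939 and 1590.4 in HOPE hearts and 1728, 1559 and 1116 in SCS hearts. At 24 h it was at 1704, 2079.9 and 2118 in HOPE hearts and 1939, 1096 and 1061 in SCS hearts. SLC25A6 was at 9946, 10508 and 13237 in HOPE hearts at 48 h, against 8953, 15035 and 11835 at 0 h, and at 14515, 13205 and 12998 in SCS hearts at 48 h, against 13004, 10589 and 13363 at 0 h. In both preservation groups its levels at the 2 times overlapped. SLC25A6 at 12 h was at 9186, 10766 and 13293 in HOPE hearts and 12662, 13918 and 19190.5 in SCS hearts. At 24 h it was at 9202, 12514 and 14840.5 in HOPE hearts and 14783, 15178 and 15568 in SCS hearts. HOPE pig 2 was lowest of the 6 hearts at each of the 4 times.

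**Figure D1:**
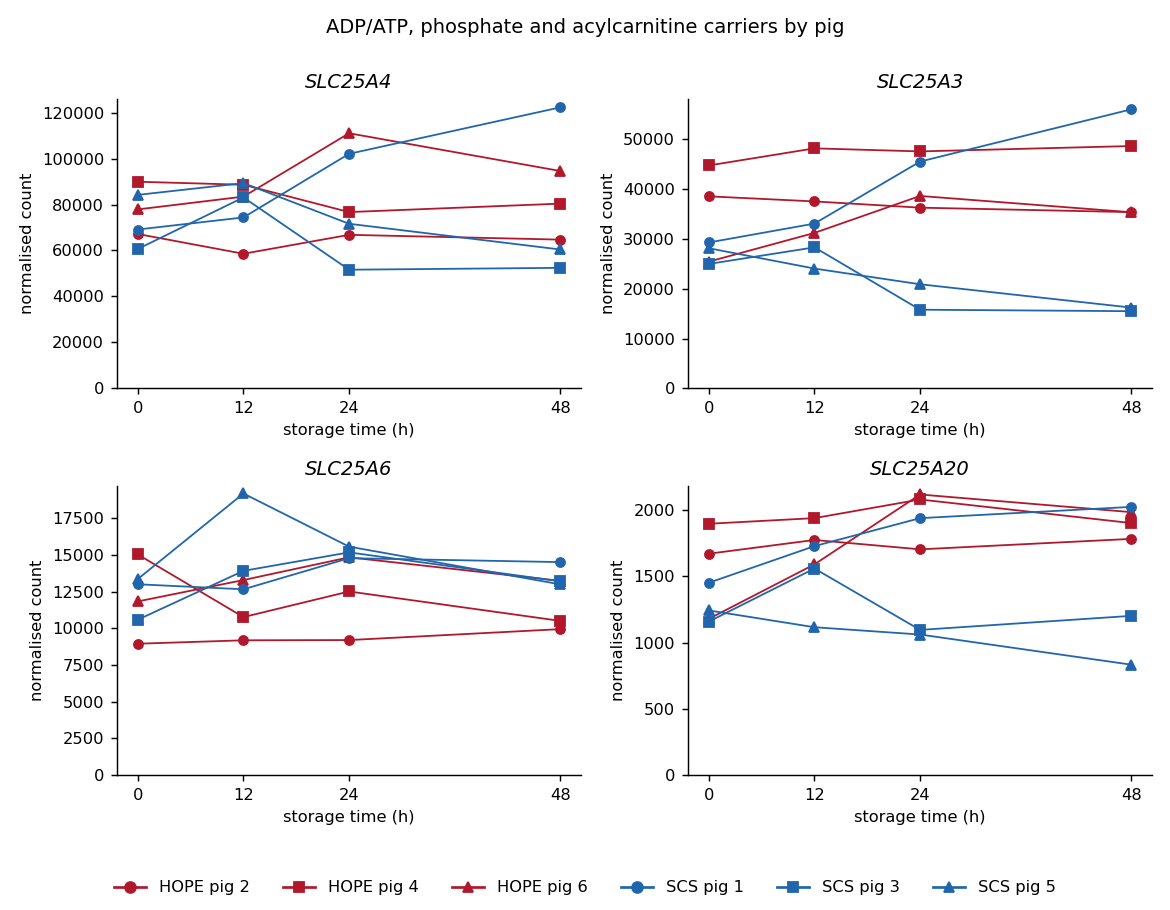
Normalised counts of SLC25A4, SLC25A3, SLC25A6 and SLC25A20 against storage time in hours, with 1 line per heart, HOPE in red and SCS in blue. SCS pig 1 ends highest of the 6 hearts for SLC25A4 (122310.0) and SLC25A3 (56049), while SCS pigs 3 and 5 end lowest.

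By limma with Benjamini-Hochberg adjustment over all 14141 genes, 0 of 37 members passed at 12, 24 or 48 h against 0 h in HOPE hearts, and 0 of 37 in SCS hearts. In each of these 6 comparisons 0.0% of all genes passed. At an unadjusted p under 0.05 there were 0, 1 and 2 members at 12, 24 and 48 h in HOPE, and 1, 0 and 2 in SCS; edgeR and DESeq2 also called 0 members in each. The same heart gave all 4 biopsies, and with the pig as a replicate block the members called stayed at 0, while 2.18% of all genes passed at 48 h of SCS and 0.00707% at 48 h of HOPE. At 48 h against 0 h the median over the 37 members was 0.11 in HOPE, against 0.01 over all genes, and 0.02 in SCS, against -0.03 over all genes. Among HOPE members the highest values were 0.59 for the aspartate/glutamate carrier SLC25A13, 0.39 for SLC25A30 and 0.33 for SLC25A34. The lowest were -0.57 for SLC25A16, -0.54 for SLC25A43 and -0.36 for SLC25A5. Among SCS members the highest were 0.73 for SLC25A35, 0.54 for the calcium-regulated ATP-Mg/phosphate carrier SLC25A23 and 0.37 for the dicarboxylate carrier SLC25A10. The lowest were -1.02 for the branched-chain amino acid carrier SLC25A44, -0.47 for the pyrimidine nucleotide carrier SLC25A36 and -0.45 for the ATP-Mg/phosphate carrier SLC25A24. None of these 12 values passed. Without the 48 h library of SCS pig 5 the SCS median over the members was 0.10, SLC25A35 was at 0.34, SLC25A10 at 0.24, SLC25A44 at -0.45 and SLC25A36 at -0.62, and 0 members passed.

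In the heart samples behind these values, few groups separated. SLC25A5 in HOPE hearts was at 284, 284 and 274 normalised counts at 48 h, against 340.1, 347 and 398 at 0 h, the only member of the 37 whose HOPE levels at the 2 times did not overlap, beside 2.53% of all genes lower and 2.23% higher without overlap. Its SCS hearts were at 342, 354 and 345 at 48 h, against 327, 359 and 379 at 0 h. At 12 h it was at 303, 286 and 322 in HOPE hearts and 321, 351 and 398 in SCS hearts. At 24 h it was at 291, 360.2 and 387 in HOPE hearts and 377, 398 and 398 in SCS hearts. SLC25A13, the liver form of the aspartate/glutamate carrier, was at 342, 539 and 283 in HOPE hearts at 48 h, against 321, 255 and 188 at 0 h, with overlap. SLC25A30 was at 11221, 11380.0 and 5775 against 9384, 8852 and 3952 and SLC25A34 at 2634, 2494 and 1323 against 2223, 2622 and 752, and in both genes pig 6 was lowest at both times. SLC25A16, known as the Graves disease carrier, was at 75.7, 66.5 and 50.2 in HOPE hearts at 48 h, against 66.3, 90.1 and 139 at 0 h, where the spread at 0 h came from pig 6. SLC25A43, whose substrate is not known, was at 433, 271 and 302 in HOPE hearts at 48 h, against 433, 653 and 385 at 0 h, and at 446, 377 and 263 in SCS hearts at 48 h, against 358, 300.2 and 215 at 0 h.

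In SCS hearts SLC25A23 was at 1034, 552 and 739.6 normalised counts at 48 h, against 497, 541 and 515 at 0 h, and SLC25A36 at 903, 773 and 1134 against 1244, 1369 and 1248. These were the members of the 37 whose SCS levels at the 2 times did not overlap, 1 higher and 1 lower, beside 5.26% and 6.21% of all genes. SLC25A24 was at 176, 506 and 342 in SCS hearts at 48 h, against 363, 478 and 445 at 0 h, with pig 1 lowest at 48 h. SLC25A35 was at 56.9, 37.6 and 105 against 30.2, 43.9 and 36.0, and its highest value was that of pig 5, whose 48 h library stands apart. SLC25A44 was below its own 0 h value in all 3 SCS hearts, at 53.8, 90.9 and 20.5 against 109, 103 and 78.0, with overlap (limma, adjusted p = 0.6; 0.0651 with the pig as a block).

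The SCS time course depended on the scaling. With total-count scaling, in which the mitochondrially encoded reads count toward the total, 9 of 37 members were lower at 48 h than at 0 h of SCS, beside 39.5% of all genes. The median over all genes then moved to -0.99 and that over the members to -0.94, so the members lay close to the genes at large. Without the 48 h library of SCS pig 5, total-count scaling left 0 members and 0.0% of all genes lower, with medians of -0.51 over all genes and -0.40 over the members. With total-count scaling that leaves out the mitochondrially encoded genes, 0 members passed.

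The change of the family with time differed between hearts. From 0 to 48 h the median change over the 37 members was 0.09, -0.03 and 0.28 on the log2 scale in HOPE pigs 2, 4 and 6, and 0.40, -0.17 and -0.14 in SCS pigs 1, 3 and 5. The change was positive for 21, 16 and 25 of the 37 members in HOPE pigs 2, 4 and 6, and for 29, 12 and 15 in SCS pigs 1, 3 and 5. The SLC25A3 value at 48 h minus that at 0 h was -0.12, 0.12 and 0.47 in the HOPE pigs and 0.94, -0.69 and -0.79 in the SCS pigs. For SLC25A4 the same difference was -0.05, -0.16 and 0.28 in the HOPE pigs and 0.82, -0.21 and -0.48 in the SCS pigs. The 9 cardiomyocyte markers summed to 1522002, 1662457 and 1567515 normalised counts in HOPE pigs 2, 4 and 6 at 48 h and to 1735621, 966581 and 1035553 in SCS pigs 1, 3 and 5. At 0 h they summed to 1321206, 1508751 and 1084242 in HOPE pigs and to 1073253, 1026555 and 1225172 in SCS pigs. The 7 endothelial markers summed to 22047, 20256 and 31158 normalised counts in HOPE pigs 2, 4 and 6 at 48 h, against 21477, 14589 and 45746.5 at 0 h. They summed to 10977, 39596 and 39272 in SCS pigs 1, 3 and 5 at 48 h, against 39341, 47559 and 43130.4 at 0 h. SCS pig 1 was thus the highest of the 6 hearts in cardiomyocyte markers and the lowest in endothelial markers at 48 h, and none of these markers was at 0 in any library. The part of these markers in the result was not tested.

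**Figure D2:**
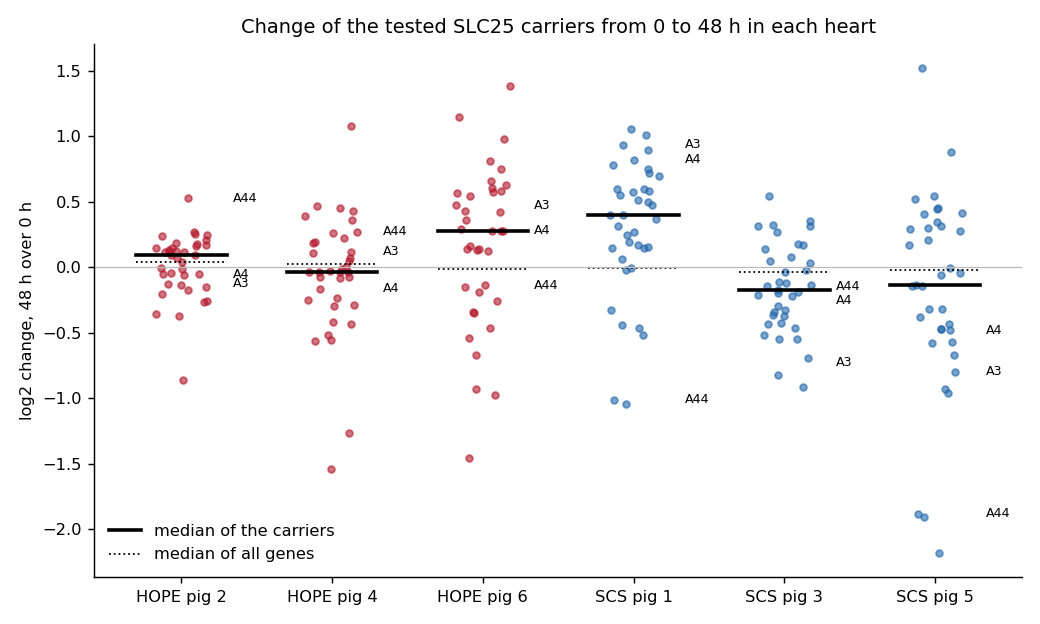
Log2 change from 0 to 48 h of each of the 37 tested members in each heart, HOPE in red and SCS in blue, with the median of the members as a solid line, the median of all genes as a dotted line, and SLC25A3, SLC25A4 and SLC25A44 lettered as A3, A4 and A44. The SCS hearts have medians of 0.40, -0.17 and -0.14, while SLC25A44 is below 0 in all 3 of them.

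After 48 h, limma called 2 carriers higher in HOPE than in SCS hearts and none lower. Its estimate of the spread treated the 4 biopsies of each heart as independent. In a limma fit of the 6 compared libraries alone, neither was called (adjusted p = 0.214 for both). SLC25A44, a carrier of branched-chain amino acids known from mouse brown fat (chromosome 4, 93837004 to 93857154), was at 256, 247 and 108 normalised counts in HOPE pigs 2, 4 and 6, against 53.8, 90.9 and 20.5 in SCS pigs 1, 3 and 5. The groups did not overlap, and the nearest values were those of HOPE pig 6 and SCS pig 3. The difference was 2.00 ± 0.45 on the log2 scale (SE; limma, adjusted p = 0.0238). These values rest on few reads, with 348, 364 and 110 reads in the HOPE libraries and 34, 75 and 7 in the SCS libraries. SLC25A12, the aspartate/glutamate carrier of the malate-aspartate shuttle (chromosome 15, 77895935 to 78021930), was at 4919.6, 4203 and 3166 normalised counts in HOPE hearts, against 2659.7, 1238 and 1213 in SCS hearts. Its groups did not overlap either, and every HOPE heart stood above SCS pig 1. The difference was 1.34 ± 0.33 (limma, adjusted p = 0.0285). Of all 14141 genes 3.84% were called higher and 2.41% lower, 6.25% in all, so 2 of 37 is a share near the background. The mitochondrially encoded share given above differed between the same groups, and its part in these results was not tested.

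Both genes had a higher mean in HOPE hearts already at 0 h, where neither passed. At 0 h SLC25A44 was at 177, 204 and 119 normalised counts in HOPE hearts and 109, 103 and 78.0 in SCS hearts, groups that did not overlap, with a difference of 0.76 ± 0.45 (limma, adjusted p = 0.677). SLC25A12 was at 4259, 4307 and 2043 in HOPE hearts and 2395, 1808 and 1929 in SCS hearts, which overlapped, with a difference of 0.72 ± 0.33 (limma, adjusted p = 0.665). At 12 and 24 h the SLC25A44 levels were 215, 205 and 104 and then 264, 248 and 102 in HOPE hearts, and 121, 83.2 and 87.6 and then 91.1, 105 and 97.6 in SCS hearts. SLC25A44 in HOPE pig 6 stayed within the SCS range at both times. The ratio of the mean SLC25A44 level in HOPE to that in SCS was 1.72, 1.80, 2.09 and 3.70 at 0, 12, 24 and 48 h, and for SLC25A12 it was 1.73, 1.75, 2.26 and 2.40 at the same times. Without the library of SCS pig 5 the 48 h ratios were 2.82 and 2.10. Whether the difference grew with time was tested as the change from 0 to 48 h in HOPE minus that in SCS: it was 1.25 ± 0.64 for SLC25A44 and 0.62 ± 0.46 for SLC25A12 (limma, adjusted p = 0.988 and 0.988; 0.191 and 0.249 with the pig as a block). Without the 48 h library of SCS pig 5 these values were 0.67 and 0.43. Neither passed with or without it. Of all 37 members 0 passed in this test of the difference in change at 12, 24 or 48 h, as did 0.0% of all genes (limma; 0, 1 and 1 members at an unadjusted p under 0.05, and 0 by edgeR and by DESeq2). With the block 0.127% of all genes and 0 members passed at 48 h.

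The fit with the pig as a replicate block called more carriers. At 48 h it added SLC25A30, an uncoupling-protein-like carrier also known as kidney mitochondrial carrier protein, at 1.29 ± 0.37 (limma with the block, adjusted p = 0.0287; 0.0956 without it). It also added the dicarboxylate carrier SLC25A10 at 0.66 ± 0.21 (limma with the block, adjusted p = 0.0443; 0.0658 without it). Beside these 4 higher members, 6.88% of all genes were higher and 4.63% lower with the block, 11.5% in all. SLC25A30 was at 11221, 11380.0 and 5775 normalised counts in HOPE hearts, against 8344, 2682 and 2242 in SCS hearts, where pig 1 exceeded HOPE pig 6. SLC25A10 was at 446, 459 and 539.7 in HOPE hearts, against 348, 222 and 365 in SCS hearts, without overlap; at 0 h it was at 397, 468 and 363 in HOPE hearts and 237, 201 and 274 in SCS hearts, likewise without overlap. At 24 h no member passed without the block, where 2.04% of all genes did; 10 members had an unadjusted p under 0.05, and edgeR called 0 members and DESeq2 1. With the block 3 members were higher and 0 lower at 24 h, beside 5.78% of all genes higher and 4.09% lower, 9.87% in all; both of these counts lie near the share of all genes. They were SLC25A12 at 1.22 ± 0.27, SLC25A30 at 1.37 ± 0.37 and SLC25A34, a carrier related to that of oxaloacetate in yeast, at 1.37 ± 0.42 (limma with the block, adjusted p = 0.0166, 0.0282 and 0.0438). SLC25A30 and SLC25A34 also had higher means in HOPE hearts at 0 h. The ratio of the mean HOPE level to that in SCS was 1.61, 2.44 and 2.14 for SLC25A30 at 0, 24 and 48 h. For SLC25A34 it was 2.06, 2.42 and 1.80 at the same times.

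Without overlap between the groups were 2 members higher in HOPE and 2 lower at 12 h, beside 11.6% and 12.0% of all genes. At 24 h there were 1 higher and 1 lower, beside 13.9% and 12.9% of all genes. SLC25A12 was among the higher ones at both times. At 12 h it was at 4471, 4314 and 2976 normalised counts in HOPE hearts and 2613, 1983 and 2124 in SCS hearts. At 24 h it was at 4365, 5394 and 3561 in HOPE hearts and 2835, 1431 and 1627 in SCS hearts. SLC25A34 at 24 h was at 2051, 3068 and 1505 in HOPE hearts and 1538, 543 and 657 in SCS hearts, where pig 1 slightly exceeded HOPE pig 6.

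**Figure D3:**
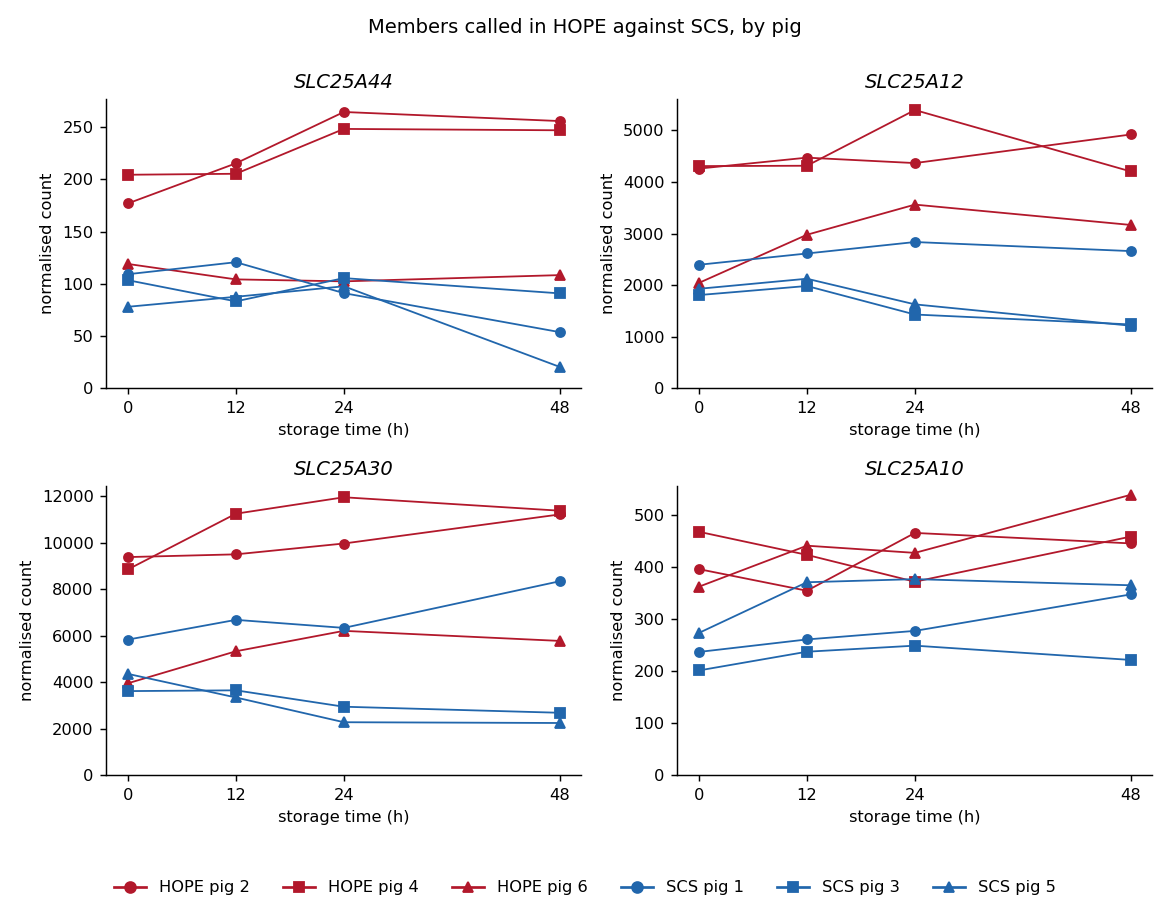
Normalised counts of the 4 carriers called at 48 h with the pig as a block, against storage time in hours, with 1 line per heart, HOPE in red and SCS in blue. SLC25A44 and SLC25A12 were also called without the block, and HOPE hearts 2 and 4 lie above all SCS hearts for both from 0 h on.

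The 48 h calls depended on single hearts, while the differences of both called genes stayed above 1 log2 unit. With a pig or library left out they ran from 1.15 to 1.72 for SLC25A12 and from 1.43 to 2.48 for SLC25A44. Leaving out SCS pig 1 raised the members called to 11, all higher in HOPE, beside 23.2% of all genes: SLC25A3, SLC25A10, SLC25A12, SLC25A13, SLC25A20, SLC25A26, SLC25A30, SLC25A34, SLC25A42, SLC25A44 and SLC25A46. Leaving out HOPE pig 2, HOPE pig 4 or SCS pig 5 left 0, beside 0.0707%, 0.0778% and 0.0354% of all genes, as did leaving out the single 48 h library of SCS pig 5 (0.099%). With the pig as a block and without that library, SLC25A12 and SLC25A44 were called, beside 5.01% of all genes. Leaving out SCS pig 3 left SLC25A44, beside 0.403% of all genes. Without HOPE pig 6 there were 5 higher and 1 lower, beside 22.3% of all genes; the lower one was SLC25A35. In a fit of the 6 compared libraries alone 0 members passed (adjusted p = 0.214 for both). At 24 h the count was 9 without SCS pig 1 (8 higher and 1 lower, beside 19.2% of all genes) and 5 without HOPE pig 6 (3 higher and 2 lower, beside 17.0%). It was 0, beside 0.0495% of all genes without HOPE pig 2 and 0.0141% without HOPE pig 4, SCS pig 3 or SCS pig 5. It was 1, SLC25A12, without the 0 h library of HOPE pig 6 (5.83% of all genes) or without the 48 h library of SCS pig 5 (2.65%).

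By substrate, 0 of 3 ADP/ATP carriers, 0 of 3 ATP-Mg/phosphate carriers and 0 of 3 uncoupling-protein-like carriers passed at 48 h, nor did the phosphate carrier. SLC25A4 differed by 0.11 with a 95% interval of -0.57 to 0.80, SLC25A6 by -0.28 (-0.75 to 0.19) and SLC25A5 by -0.30 (-0.60 to -0.01), and none passed. SLC25A5 was at 284, 284 and 274 normalised counts in HOPE hearts, against 342, 354 and 345 in SCS hearts, without overlap (limma, adjusted p = 0.165); with total-count scaling the signs of SLC25A5 and SLC25A6 turned positive. SLC25A6 was at 9946, 10508 and 13237 in HOPE hearts, against 14515, 13205 and 12998 in SCS hearts, with HOPE pig 6 inside the SCS range. The phosphate carrier SLC25A3 differed by 0.70 (-0.15 to 1.56) and SLC25A20 by 0.58 (0.01 to 1.14), with adjusted p = 0.263 and 0.174 by limma. With a pig or library left out, SLC25A3 ran from 0.38 without SCS pig 3 to 1.31 without SCS pig 1, and SLC25A20 from 0.28 without SCS pig 5 to 0.92 without SCS pig 1. The intervals leave room for differences of more than 1 log2 unit for both genes.

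Of 7 tested di- and tricarboxylate, aspartate and glutamate carriers, 1 was called higher, and their median was 0.41. Of 8 nucleotide and cofactor carriers 0 passed, with a median of 0.25 and a range of -0.44 for SLC25A16 to 1.05 for the pyrimidine carrier SLC25A33. Without the 48 h library of SCS pig 5, SLC25A16 was at -0.14 and SLC25A33 at 0.19. Of 5 carriers of iron, glycine, glutathione and branched-chain amino acids 1 was called higher, SLC25A44, while the other 4 lay between -0.25 and 0.27. The median over the 37 members was 0.26, against 0.02 over all genes, and 21 of the 37 were positive. The lowest values were -1.48 for SLC25A35, a relative of SLC25A34, -0.72 for SLC25A47, known as a liver carrier, and -0.44 for the glutamate carrier SLC25A22; none passed. SLC25A47 was at 16.2, 4.75 and 20.7 normalised counts in HOPE hearts, against 33.2, 27.9 and 8.77 in SCS hearts, and SLC25A22 at 73.5, 67.8 and 99.5 against 90.1, 95.7 and 146, both with overlap. With total-count scaling the signs of SLC25A22 and SLC25A47 turned positive. Without the 48 h library of SCS pig 5, SLC25A47 was at -1.29 and SLC25A22 at -0.23. SLC25A35 was at 19.8, 22.4 and 21.7 normalised counts in HOPE hearts, against 56.9, 37.6 and 105 in SCS hearts, without overlap (limma, adjusted p = 0.0622), and the difference was -1.09 without the 48 h library of SCS pig 5. DESeq2 called it lower, as did the fits without HOPE pig 6 and without the 0 h library of that pig (2 members higher and 1 lower, beside 10.4% of all genes). Without overlap between the groups were 4 members higher and 2 lower at 48 h, beside 10.5% and 10.2% of all genes. At 0 h there were 7 higher and 2 lower, beside 5.23% and 6.19% of all genes, and 0 of 37 members passed at 0 h (limma; 4 at an unadjusted p under 0.05, and 0 by edgeR and by DESeq2). At 12 h 0 passed as well (limma; 3 at an unadjusted p under 0.05, and 0 by edgeR and by DESeq2), beside 0.0141% of all genes.

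**Figure D4:**
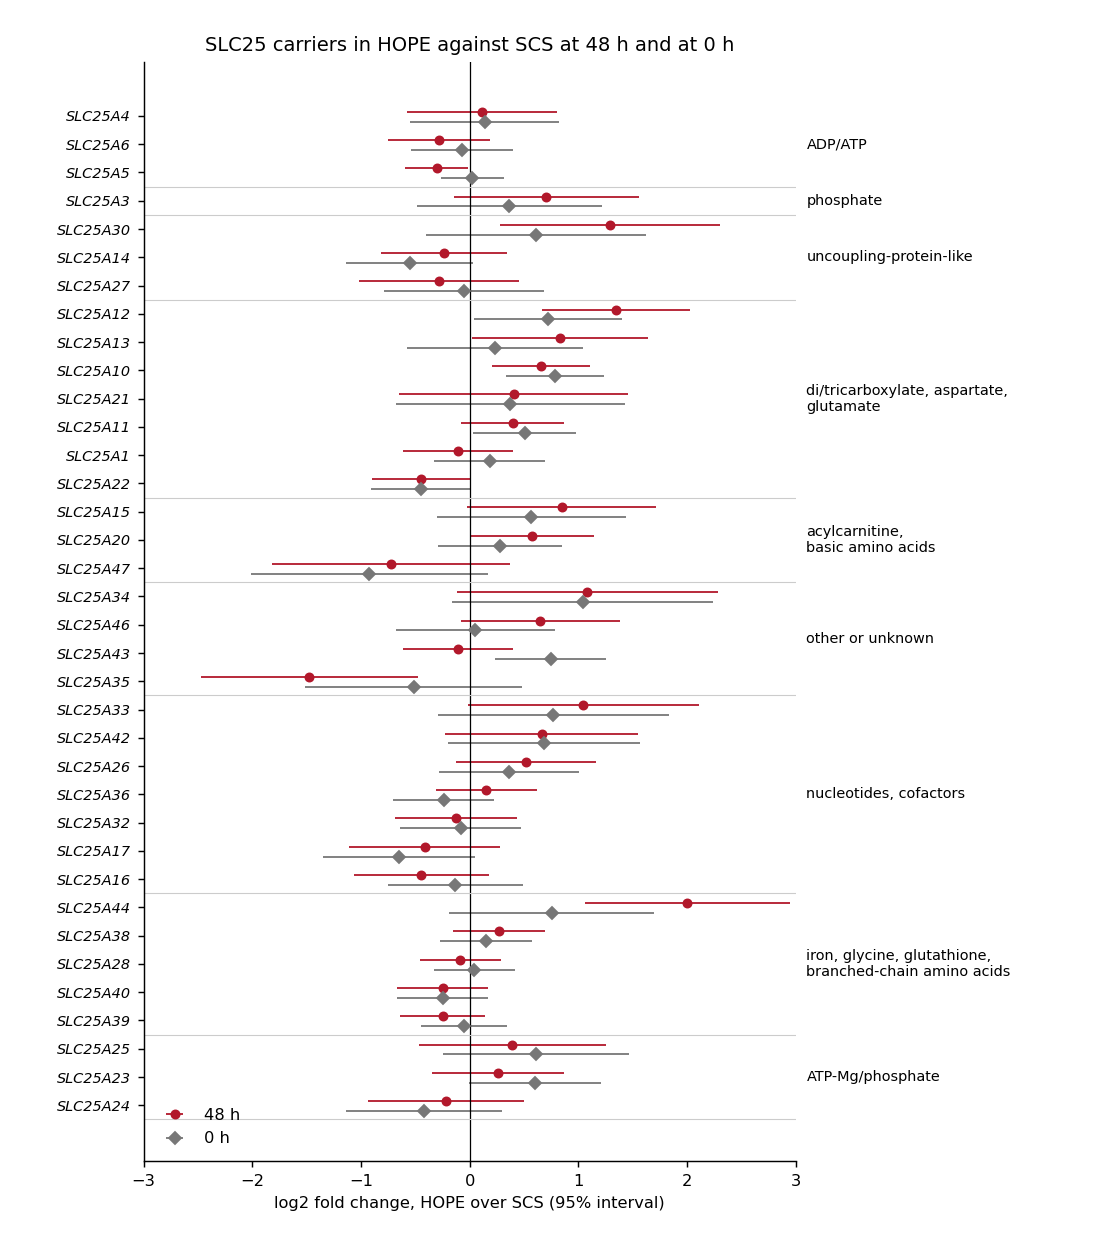
Log2 fold change of HOPE over SCS for tested members at 48 h (red circles) and at 0 h (grey diamonds), grouped by substrate, with 95% intervals from limma that are not adjusted for the number of genes. SLC25A44 at 2.00 and SLC25A12 at 1.34 are highest at 48 h, and both also lie above 0 at 0 h, at 0.76 and 0.72.

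With total-count scaling 26 of the 37 members were higher in HOPE at 48 h, beside 57.1% of all genes. The median over all genes then moved to 1.12 and that over the members to 1.38, against 0.02 and 0.26 with the deposited scaling. Without the 48 h library of SCS pig 5, 8 members were higher with total-count scaling, beside 18.8% of all genes, and the medians were 0.67 over all genes and 0.87 over the members. At 0, 12 and 24 h it moved the median over all genes to 0.11, 0.47 and 0.39, and 0 members passed. With total-count scaling that leaves out the mitochondrially encoded genes 3 were called, SLC25A10, SLC25A12 and SLC25A44.

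Genes that work beside the carriers gave few calls in the same comparison, where 3.84% of all genes were called higher and 2.41% lower. Without the 48 h library of SCS pig 5, 0.099% of all genes were called. In a fit of the compared groups alone 0.0% were called. The values and calls of partner genes and markers below rest on all libraries and are not given without that one. The 4 enzymes of the malate-aspartate shuttle, which SLC25A12 and SLC25A11 complete, were all positive at 48 h with a median of 0.89, and 0 passed; GOT1 was at 0.95 and GOT2 at 0.96 (limma, adjusted p = 0.0765 and 0.080). SLC25A11, the oxoglutarate carrier, was at 5579, 5261 and 5067 normalised counts in HOPE hearts, against 5419, 3463 and 3470.2 in SCS hearts, and did not pass. Of 6 carnitine shuttle partners of SLC25A20, 0 passed, with the muscle carnitine palmitoyltransferase CPT1B at 1.15 (limma, adjusted p = 0.0564). Of 12 genes of the machinery that imports carriers into the inner membrane 0 passed, with a median of 0.10. Of 22 other mitochondrial transporters 1 was called higher, ABCB8, an ABC transporter of mitochondria, at 1.94 (limma, adjusted p = 0.0208). Of 7 genes in the list of PGC-1 and its partner regulators, which drive mitochondrial gene expression, 0 passed and 7 were positive, with a median of 1.02. Of the 9 cardiomyocyte markers 6 were positive, with a median of 0.42, and 0 passed. Of the 7 T and NK cell markers 4 were called lower in HOPE, and they summed to 254 to 438 normalised counts in HOPE hearts, against 776 to 1223 in SCS hearts. Of the 2 red cell markers 1 was called higher, with sums of 160.2 to 674 in HOPE hearts, against 26.9 to 78.7 in SCS hearts. None of these markers was at 0 in all libraries, and their part in the carrier results was not tested.

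After storage and NMP, no carrier passed for a difference between storage times of HOPE hearts. SLC25A4 was at 4292 and 3212 TPM after 3 h, 2738 and 3681 TPM after 24 h and 2842 and 4351 TPM after 48 h of HOPE. SLC25A3 was at 1616 and 1238, 832 and 1203, and 739.8 and 1558 TPM at the same times. SLC25A20 was at 34.5 and 26.7, 22.8 and 29.4, and 24.2 and 26.1 TPM. SLC25A4 levels overlapped between all 3 times. For SLC25A3 both 24 h libraries lay below both 3 h libraries, while the 48 h libraries overlapped with those of 3 h and of 24 h. The share of all genes that separated between storage times of HOPE was not counted. Of 25 members with a mean of at least 1 TPM, 0 passed in the comparison of 24 h with 3 h, of 48 h with 3 h or of 48 h with 24 h (limma; 2, 1 and 0 at an unadjusted p under 0.05), as did 0.0% of 10986 genes. The count was also 0 in each without the SCS library. With 2 libraries a group and 3 residual degrees of freedom, the SE of the SLC25A4 difference between 48 and 3 h was 0.32 log2 units. Its 95% interval ran from -0.81 to 0.66 and that of SLC25A3 from -1.34 to 0.54, which leaves room for differences of that size.

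The members with the highest and lowest values after NMP were mostly carriers at under 10 TPM. After 24 h against 3 h of HOPE, the folate and FAD carrier SLC25A32 was at 5.87 and 6.85 TPM, against 3.38 and 1.21 TPM (1.24 on the log2 scale). Both of its 24 h libraries lay above both 3 h libraries. Other members separated too, in either direction, such as SLC25A16 and SLC25A22 above and SLC25A26 below. The share of all genes that did so was not counted. SLC25A16 was at 3.01 and 5.60 TPM, against 2.39 and 1.54 TPM (0.81), and SLC25A22 at 6.55 and 7.68 TPM, against 5.82 and 2.38 TPM (0.75). The lowest values were -0.50 for SLC25A3, -0.39 for the S-adenosylmethionine carrier SLC25A26 (6.47 and 5.61 TPM, against 7.68 and 8.76 TPM) and -0.37 for the citrate carrier SLC25A1 (7.66 and 12.0 TPM, against 14.3 and 11.3 TPM). After 48 h against 3 h, SLC25A25 was at 64.5 and 16.0 TPM, against 14.5 and 14.1 TPM (1.13), a difference carried by 1 of the 2 libraries. SLC25A32 (2.94 and 5.25 TPM) at 0.67 and the peroxisomal cofactor carrier SLC25A17 (8.23 and 5.94 TPM, against 5.82 and 5.06 TPM) at 0.32 followed. SLC25A13 was lowest, at 1.95 and 2.38 TPM, against 4.76 and 4.04 TPM (-0.77), then SLC25A12, at 24.6 and 36.2 TPM, against 44.4 and 48.6 TPM (-0.62). In both genes the 48 h libraries lay below the 3 h libraries, as they did in SLC25A1 and SLC25A44. The share of all genes was not counted here either. SLC25A1, at 7.17 and 9.80 TPM after 48 h, differed by -0.54. After 48 h against 24 h values among the highest were SLC25A25 at 0.47 and SLC25A4 at 0.15. The lowest there were SLC25A22 (4.92 and 2.66 TPM, against 6.55 and 7.68 TPM) at -0.80, SLC25A47 (1.23 and 2.1998 TPM, against 2.66 and 3.85 TPM) at -0.66 and SLC25A32 at -0.57. None of these values passed.

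SLC25A4, SLC25A12, SLC25A20 and SLC25A3 were lower in the single library taken after 24 h of SCS and NMP than in those after 24 h of HOPE and NMP. SLC25A4 was at 135 TPM in the SCS library, against 2738 and 3681 TPM after 24 h of HOPE, which is 23.8-fold lower than the HOPE mean. SLC25A3 was at 175 TPM, against 832 and 1203 TPM (5.82-fold lower). SLC25A12 was at 4.59 TPM, against 34.6 and 43.4 TPM (8.51-fold lower), and SLC25A20 at 3.65 TPM, against 22.8 and 29.4 TPM (7.15-fold lower). In each of these genes the SCS value lay below all 6 HOPE libraries. The SLC25 genes together held 0.0515% of the SCS library, against 0.388% to 0.622% of the HOPE libraries. SLC25A4 made up 26.1% of that sum in the SCS library, against 68.1% to 73.1% in the HOPE libraries, and SLC25A3 was the highest member there.

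Of 25 tested members, 8 were called lower and 0 higher in the SCS library than after 24 h of HOPE, where 24.6% of 10986 genes were called lower and 1.8% higher, 26.4% in all, so the members' count lies near the share of all genes. Log2 fold changes were -4.55 ± 0.39 for SLC25A4, -2.83 ± 0.37 for SLC25A12, -2.53 ± 0.35 for SLC25A20 and -2.51 ± 0.49 for SLC25A3 (limma, adjusted p = 0.00138, 0.00334, 0.00397 and 0.0127). SLC25A39 at -1.41, the ornithine carrier SLC25A15 at -1.40, SLC25A29 at -1.32 and SLC25A5 at -1.24 were lower as well (limma, adjusted p = 0.0406, 0.0279, 0.0449 and 0.0441). SLC25A39 was at 16.0 TPM in the SCS library, against 49.2 and 39.7 TPM, and SLC25A5 at 24.6 TPM, against 57.7 and 61.3 TPM. SLC25A29 was at 14.8 TPM, against 42.1 and 34.8 TPM, and SLC25A15 at 0.766 TPM, against 3.55 and 3.79 TPM. The median over the 25 members was -1.04, against -0.73 over all genes. With 1 SCS library the test assumed that it varied like the other groups, and it compares these 3 libraries. Leaving out one HOPE 24 h library or the other left 4 or 3 members called, beside 7.99% or 4.84% of all genes. Only SLC25A4, SLC25A12 and SLC25A20 kept their calls under all 8 alternatives tried.

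The same library was low in heart muscle transcripts at large. All 7 measured cardiomyocyte markers were called lower in it, with a median of -4.48, and MYH7 was at 62.0 TPM, where the median of the 7 libraries was 3389 TPM. The 2 red cell markers and 3 of 5 T and NK cell markers were called higher, 1 of 4 fibroblast markers was called higher and 2 of 5 endothelial markers lower. The red cell markers summed to 6161 TPM in the SCS library, against 34.0 to 3125 TPM in the HOPE libraries, and the T and NK markers to 70.003 TPM, against 15.0 to 48.4 TPM. The part of these markers in the carrier result was not tested. The calls of markers and of partner genes stand beside 24.6% of all genes called lower and 1.8% called higher. Of the partner genes, 3 of 3 malate-aspartate shuttle enzymes, 2 of 3 carnitine shuttle partners, 7 of 11 import genes and 3 of 5 PGC-1 list genes were called lower, while 0 of 13 mitochondrially encoded genes passed.

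SLC25A25 went the other way. This carrier, whose transport of ATP-Mg for phosphate is regulated by calcium, was at 93.9 TPM in the SCS library, against 22.7 and 23.4 TPM after 24 h of HOPE, and above all 6 HOPE libraries. It was the third highest member in that library, after SLC25A3 and SLC25A4. The difference was 1.98 ± 0.69, with a 95% interval of 0.37 to 3.59, and did not pass (limma, adjusted p = 0.0701). It passed in 2 of 8 alternatives, with quantile normalization, at 3.13 (limma, adjusted p = 0.032), and with a minimum of 10 TPM (limma, adjusted p = 0.0363). With that minimum 8 of 8 members and 54.2% of 4388 genes were called. With quantile normalization 15.8% of all genes were called. Of all 32 members in arm 2, 15 were lower in the SCS library than in every HOPE library and 4 were higher, all of them among the 25 tested, beside 49.4% of the 10986 tested genes lower and 11.6% higher. Among the 4 were the glycine carrier SLC25A38 at 6.78 TPM and SLC25A47 at 3.97 TPM. In arm 1, without NMP, SLC25A25 was at 227, 172 and 668 normalised counts after 24 h of HOPE, against 178, 209.6 and 243 after 24 h of SCS, with HOPE pig 6 far above the rest.

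**Figure D5:**
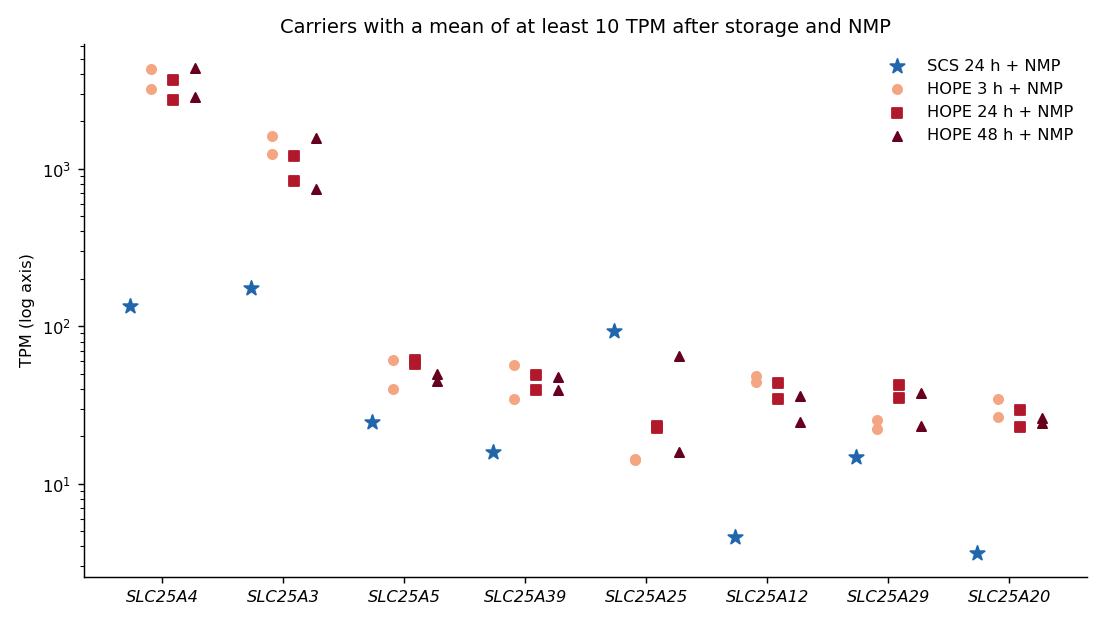
TPM on a log axis of the 8 members with a mean of at least 10 TPM in the 7 libraries taken after storage and NMP, with the SCS library as a star and the HOPE libraries by storage time. The SCS library is lowest for 7 of the 8 and highest for SLC25A25.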

How the data were processed

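Bulk RNA-seq of pig myocardium was deposited as 2 tables. In arm 1 (stranded mRNA libraries, per the labels' protocols) the authors divided counts by a size factor per library, and this normalised signal was analysed as deposited. Its values are whole multiples of 1 step per library (100% of values at a tolerance of 1e-06), from which reads were recovered. The arm 2 table (poly(A) libraries with spike-ins) holds TPM made by the authors, and 11 of its columns that match no sample here were not used. The submitters' processing notes name HISAT2 2.2.1, STAR 2.5.2b, featureCounts 2.0.6 and Sscrofa11.1, with no role given.

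Tests used limma 3.58.1 in R 4.3.3 on log2(value + 1), fitted over all groups of an arm, with Benjamini-Hochberg adjustment at 0.05 over all genes with a mean of at least 10 (arm 1) or 1 TPM (arm 2); the log2 differences understate changes of low genes. They were tested on simulated data. The simulated libraries were independent, unlike the biopsies of a pig, so this does not bear on the pairing. In arm 2 few of the changes put in were recovered. The same pig gave 4 biopsies, and same-pig deviations correlated at 0.399 to 0.73 (HOPE) and 0.232 to 0.72 (SCS), so the numbers pair the samples; the block was fixed within pigs and random, with a correlation of 0.44, between groups. The arm 2 labels do not say that libraries came from separate hearts, so its p-values measure only the spread between these libraries. Named members are SLC25A3, SLC25A4, SLC25A5, SLC25A6, SLC25A20 and SLC25A31, given in every arm 1 library (SLC25A31 and the others in arm 2 where named there, in the text or as points in a plot), members past the threshold, and the 3 highest and 3 lowest in the main comparisons, given in the libraries compared; other genes were named after their values were seen. The members, lists and tests were chosen with earlier results of these data known. Alternatives were edgeR 4.0.16 and DESeq2 1.42.0 on recovered reads (without the SCS 12 h library of pig 1, whose step could not be checked), other scalings, filters and pseudocounts, the block, and leaving out libraries. Positions are from RefSeq's Sscrofa11.1 table by symbol, for 43 of 44 symbols. No sequences were used. Values of 1 member are not reported here.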

Additional observations from a re-analysis of the deposited data

Results flagged for a closer look

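SLC25A43, a carrier of unknown substrate, had values of opposite sign in the 2 preservation groups: at 12, 24 and 48 h it was below its own 0 h value in all 3 HOPE hearts and above it in all 3 SCS hearts. The change in HOPE minus the change in SCS was -0.68 at 12 h, -0.94 at 24 h and -0.85 at 48 h on the log2 scale. Of all genes, 2.86%, 2.08% and 2.32% moved in this way at the same times. The test of the difference itself did not pass at any of them (limma, adjusted p = 1.00, 1.00 and 0.988; 0.976, 0.334 and 0.205 with the pig as a block). The 3 values share the same 0 h libraries, in which SLC25A43 was already 0.74 log2 units higher in HOPE than in SCS. At 48 h HOPE pig 2 differed from its 0 h value by less than 0.01, and with total-count scaling the 48 h value turned to 0.14.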

How the results depend on the processing

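The members called in HOPE against SCS at 48 h (2 as reported) were 4 with DESeq2 (13.6% of all genes), 26 with total-count scaling (57.4%), 8 with that scaling without the 48 h library of SCS pig 5 (18.9%), 0 in a fit of the compared groups (0.0%) and 0 to 11 with a pig or library left out. With the pig as a replicate block they were 4 (11.5%). With the block and without HOPE pig 2, 4 or 6 they were 0, 0 and 7, beside 0.0849%, 0.113% and 23.6% of all genes. With the block and without SCS pig 1, 3 or 5 they were 12, 1 and 0, beside 26.8%, 1.97% and 0.0919%, and without the 48 h library of SCS pig 5 they were 2, beside 5.01%. At 24 h (0 as reported) they were 1 with DESeq2 (10.6%), 3 with the replicate block (9.87%) and 0 to 9 with a pig or library left out; with the block they were 7 without HOPE pig 6 (19.4%), 11 without SCS pig 1 (23.5%) and 3 without the 48 h library of SCS pig 5 (11.3%). With all libraries, the block changed no other call in arm 1. In SCS at 48 h against 0 h total-count scaling gave 9, as reported above. With the replicate block, 2 members were lower there without SCS pig 1 (SLC25A3 and SLC25A30, beside 2.33% of all genes) and 1 without SCS pig 3 (SLC25A44, beside 4.22%). In the SCS library after NMP (8 as reported), where 26.4% of all genes were called, there were 3 with no filter (1886 of 16925 genes), 5 with quantile normalization (15.8%), 5 after rescaling without mitochondrially encoded genes (20.9%), 3 to 4 with a HOPE library left out (4.84% and 7.99%) and 7 (26.5%) with the arm 2 numbers as a replicate block, numbers that the labels do not say pair hearts (correlations of 0.0608 to 0.179). Other counts of members stayed within 1.5 times the reported value. The sign turned with total-count scaling at 48 h for SLC25A22 (0.66), SLC25A47 (0.26), SLC25A5 (0.81), SLC25A6 (0.84) and the SLC25A43 difference in change (0.14). SLC25A4 turned to -0.02 without HOPE pig 6, without SCS pig 5 and without the 48 h library of SCS pig 5, and to -0.12 without SCS pig 3; its left-out values ran from -0.12 to 0.49. Fits that join the block or total-count scaling with a left-out pig or library, and arm 2 fits without the SCS library, were chosen after seeing the data. The cause of these shifts was not tested. With 3 hearts a group in arm 1 and 1 or 2 libraries in arm 2, members at low counts rest on few reads, such as SLC25A44 with 7 in the library of SCS pig 5 at 48 h. The SE at 48 h was largest for SLC25A34 among the 37 members, at 0.58.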
